A study of Caenorhabditis elegans with 32 samples.

Results

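Translation efficiency was examined in the 8324 genes that had at least 10 counts in each of the 16 libraries of the muscle experiment, out of 46748 genes in the table and 15897 genes in the fit. These genes were chosen by their counts alone, but the filter did not fall equally on the groups, as described below. They held 97.5% to 99.5% of the counts of a library, and 8150 of them are protein-coding.

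The libraries came from the C. elegans strain WBM1339, in which ribosomal subunits carry a FLAG tag so that muscle ribosomes can be pulled down with an anti-FLAG antibody (translating ribosome affinity purification, TRAP). Synchronized L1 larvae of this 1 strain were placed on empty vector (EV, the control RNAi) or dimt-1 RNAi plates, and worms were collected as young adults, so both groups carried the tag and differed in the RNAi only. Each RNAi had 4 biological replicates, and each gave a TRAP library and a total RNA library from whole-worm lysate. The promoter that drives the tagged protein was not given in the sources used here.

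DIMT-1 is the enzyme that places a dimethyl mark on adenosines of the 18S rRNA, the RNA of the small ribosomal subunit. An mRNA that is loaded with many ribosomes is recovered well by TRAP, so the TRAP level over the total RNA level is used as translation efficiency. Body wall muscle is the main motor tissue of the worm and devotes much of its mRNA to the sarcomere, the repeating unit of actin and myosin filaments.

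For each replicate, the log2 ratio of TRAP to total RNA was taken from CPM (counts scaled to a fixed library total) after TMM scaling, with a prior count of 2, and the change in translation efficiency is the difference between the ratios under dimt-1 RNAi and under EV. A ratio of 1 is a 2-fold excess in the TRAP library. Because TRAP reports on muscle and total RNA on the whole worm, the ratio holds both the share of an mRNA that lies in muscle and its ribosome loading. These cannot be told apart, nor can fewer cells of a type and less RNA per cell.

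The TRAP libraries had 34794250 to 49782576 counts and the total RNA libraries had 37400849 to 48432613 counts. Among counts of 1 to 20, 78.06% to 89.96% were even numbers in each library, and counts divided by 2 are among the alternatives. The 14 muscle markers were all well counted, with median ratios of 5.08 to 5.32 under EV and of 4.54 to 5.38 under dimt-1 RNAi, and so the labelled tissue carried its markers. TRAP libraries limited membership. All 8 total RNA libraries had at least 10 counts for 12676 genes, against 8416 genes in all 8 TRAP libraries. Of the 1127 genes that fell short in 1 library alone, 366 did so in the TRAP library labelled dimt-1 replicate 3 and 356 in that of EV replicate 2.

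The replicate labelled dimt-1 replicate 3 stood apart from its group. Its ratios correlated with those of the other 3 dimt-1 replicates at r = 0.878 to 0.884 across the genes, against up to 0.960 among the others, and it was the most distant of the 4 for 47.1% of the genes. The EV lysates correlated with each other at 0.877 to 0.896. In this measure dimt-1 replicate 3 was thus like an EV lysate, and the other 3 dimt-1 replicates were more alike than the EV lysates. In total RNA dimt-1 replicate 3 also had the level of the targeted gene seen under EV. E02H1.1, which encodes DIMT-1 and lies on chromosome II at 9589865 to 9591164 (WBcel235, minus strand), had 22.8 to 25.8 CPM in the 4 EV total RNA libraries, and 16.6, 19.7, 24.2 and 15.1 CPM in dimt-1 replicates 1 to 4. The means were 24.3 ± 1.51 CPM under EV and 18.9 ± 4.01 CPM under dimt-1 RNAi (SD, n = 4), and the groups overlapped (exact two-sided permutation test, p = 0.0857, where the smallest p is 0.0286). Without the replicate labelled dimt-1 replicate 3, the one dimt-1 value inside the EV range, the difference was -7.16 CPM, against -5.35 CPM with all 4. This is given with no test, since leaving out that value by itself separates the groups.

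In the TRAP libraries E02H1.1 lay at 15.9 ± 5.35 CPM under EV and 22.6 ± 7.80 CPM under dimt-1 RNAi (SD, n = 4; exact two-sided permutation test, p = 0.2). Its log2 ratios were 0.01, -1.25, -0.89 and -0.52 under EV and 0.24, 0.09, -0.59 and 1.16 under dimt-1 RNAi. The fitted change of 0.88 did not pass the test (edgeR, SE 0.39, adjusted p = 0.571). The targeted transcript thus showed no separation of the groups in the muscle ribosome fraction, and its value was higher rather than lower there.

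The first question was whether any well-counted gene changed in translation efficiency. None passed the edgeR quasi-likelihood test of the interaction between fraction and RNAi, with the lysate as a block and p-values adjusted over all 15897 genes in the fit. Of the 8324 genes 0 passed an adjusted p under 0.05, as did 0 of all genes in the fit (0%), and the lowest adjusted p was 0.461. Without the filter on low counts the lowest adjusted p was 0.056, and without the lysate block it was 0.0706, with 0 called in both. At an unadjusted p under 0.05 there were 699 well-counted genes with a higher and 156 with a lower ratio under dimt-1 RNAi, beside 7.38% and 1.08% of all genes in the fit. Limma on the 8 log2 ratios also called 0 of the well-counted genes, with 423 at an unadjusted p under 0.05.

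Further tools called a few. DESeq2, run with its own size factors, called 45 of the well-counted genes, 12 higher and 33 lower. That was 0.541% of them, against 1.44% of all genes it tested. Limma voom with library quality weights called 14, 8 higher and 6 lower, or 0.168% against 0.302% of all genes. The 2 sets shared 10 genes, which were pck-2, F18C12.3, imb-1, haf-2, rpl-39, cyb-2.1, W08E12.7, col-140, col-160 and col-178, named after their values were seen. Of the genes described further on, DESeq2 also called act-1, act-4, pat-10, tni-3, iff-2, rps-6, rpl-25.1, nos-2, mfsd-13.1, ttr-25, F55H12.4, F21C10.7, coa-7 and mpc-1. The library weights ran from 0.399 in the TRAP library labelled dimt-1 replicate 3 to 2.92 in that of dimt-1 replicate 1. In both tools the share called was lower among the well-counted genes than among all genes.

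Among the genes that the filter kept, the differences were small. The median change of the well-counted genes was 0.14 on the log2 scale, the middle 90% lay between -0.52 and 0.78, and the extremes were -1.76 and 2.14. The change was within 2-fold in either direction for 97.3% of the genes, with 168 genes above 1 and 57 below -1. For 67.9% of the genes the difference between groups was smaller than 1 SD of the ratios within groups, whose medians were 0.38 under EV and 0.32 under dimt-1 RNAi. Among the other 7573 genes in the fit, which lacked 10 counts in at least 1 library, the median change was 2.11 and the middle 90% ran from -2.04 to 7.03. Those at the threshold were alike in precision, since the 82 genes with a lowest count of 10 to 14 had a median 95% confidence half-width of 1.89 and the 77 genes with 5 to 9 had 1.97.

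**Figure D1:**
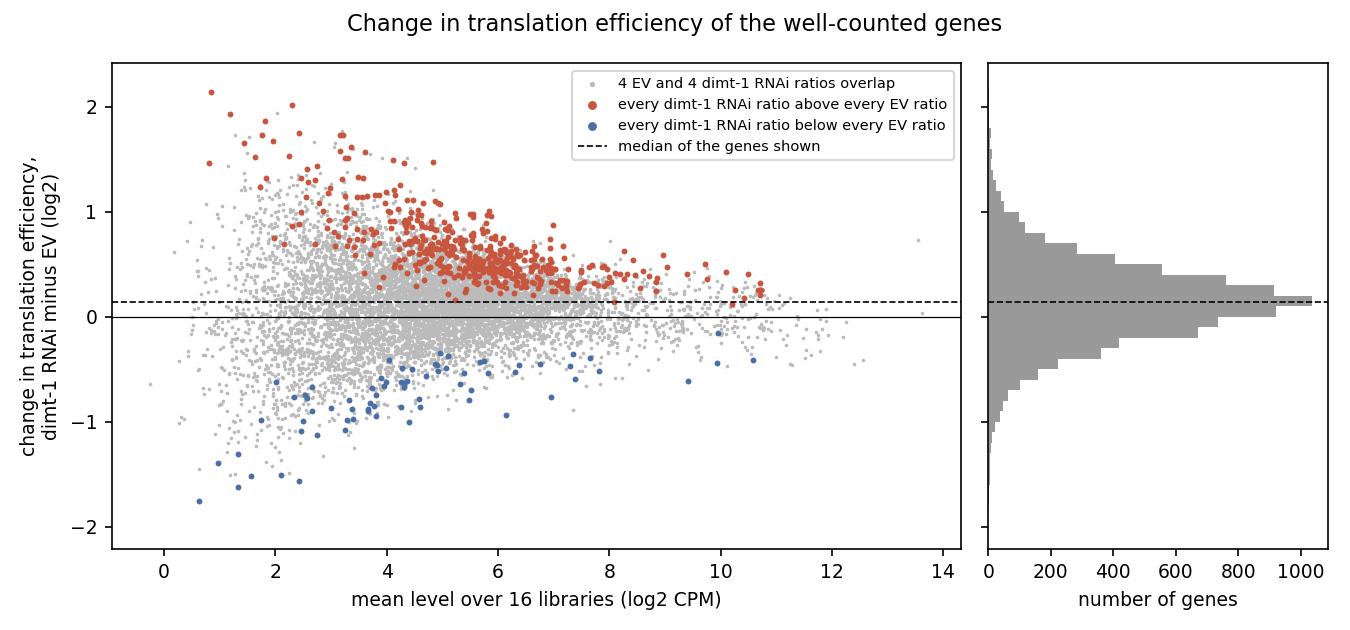
Change in translation efficiency (log2, dimt-1 RNAi minus EV) of each of the 8324 well-counted genes against its mean level over the 16 libraries (log2 CPM), with a histogram at the right. The cloud narrows with level and is centred at 0.14 (dashed line), and the coloured genes, whose 4 EV and 4 dimt-1 RNAi ratios do not overlap, number 470 above and 72 below.

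The precision set how much could have been seen. The median 95% confidence half-width, from limma on the 8 ratios, was 0.69. It fell from 1.27 in the lowest of 10 equal bins of genes by mean level to 0.47 in the highest. The whole interval lay within a 2-fold change for 51.4% of the well-counted genes and within a 1.5-fold change for 10.8%. For these 4280 genes a change of more than 2-fold lay outside the interval, while in the lowest bin the median half-width was itself wider than a 2-fold change.

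The centre of the distribution depended on the scaling. With DESeq2's size factors in place of TMM the median change was -0.01 and 49.2% of the genes were above 0, against 65.5% with TMM. The genes at an unadjusted p under 0.05 were then 269 higher and 373 lower. In the same way, the 4 dimt-1 RNAi ratios all lay above the 4 EV ratios for 470 genes and all below for 72 with TMM (5.65% and 0.865% of the well-counted genes, beside 5.31% and 0.705% of all genes in the fit). With DESeq2's size factors these were 194 and 158 genes (2.33% and 1.90%, beside 3.36% and 1.33%). The excess of higher over lower genes thus depended on the scaling, and groups of genes are given below also relative to the median of all well-counted genes, which shifted by 0.14 between the scalings.

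Relative to that median, the change went with how strongly a gene was enriched by TRAP. When the genes were divided into 10 equal bins by their mean ratio over the 8 lysates, the median change was 0.34 in bin 1, the genes most depleted in TRAP, and was lower in each following bin, down to -0.15 in bin 10, the genes most enriched. The bins and the change use the same ratios, and their spread differed between groups. The median SD was 0.60 under EV and 0.39 under dimt-1 RNAi in bin 1, and 0.32 and 0.39 in bin 10. The part of this in the gradient was not tested. Relative to all well-counted genes, bin 1 lay at 0.20 and bin 10 at -0.28. With DESeq2's size factors these values were 0.20 and -0.28, and leaving out each lysate in turn gave 0.13 to 0.24 and -0.38 to -0.20.

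The lysates showed how far this held. In bin 1 the median ratios were -1.21, -1.44, -1.07 and -1.04 under EV and -0.64, -0.89, -1.15 and -0.86 under dimt-1 RNAi. Dimt-1 replicates 1, 2 and 4 were above every EV value, and the replicate labelled dimt-1 replicate 3 lay among them. In bin 10 the ratios were 4.07, 4.18, 3.76 and 3.94 under EV and 3.67, 4.17, 3.70 and 3.77 under dimt-1 RNAi, where dimt-1 replicate 2 was as high as the highest EV lysates and the groups overlapped. The interquartile range of the ratios over genes, the spread between depleted and enriched mRNAs, was 1.38 to 1.75 under EV and 1.15 to 1.44 under dimt-1 RNAi. The muscle markers went with this gradient, with 1 of 14 markers above 0 and a median change of -0.33. So did the 12 germline markers, with 11 above 0 and a median of 0.23, beside 79.95% of bin 1 above 0. Sperm markers, at a mean ratio of -0.26 under EV, had a median change of 0.34. Markers of intestine, hypodermis and pharynx went against the gradient. Their mean ratios under EV were also below 0, at -0.58, -0.46 and -0.69, but their median changes were -0.14, -0.08 and -0.03. The part of the enrichment of muscle RNA in these differences was not tested.

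**Figure D2:**
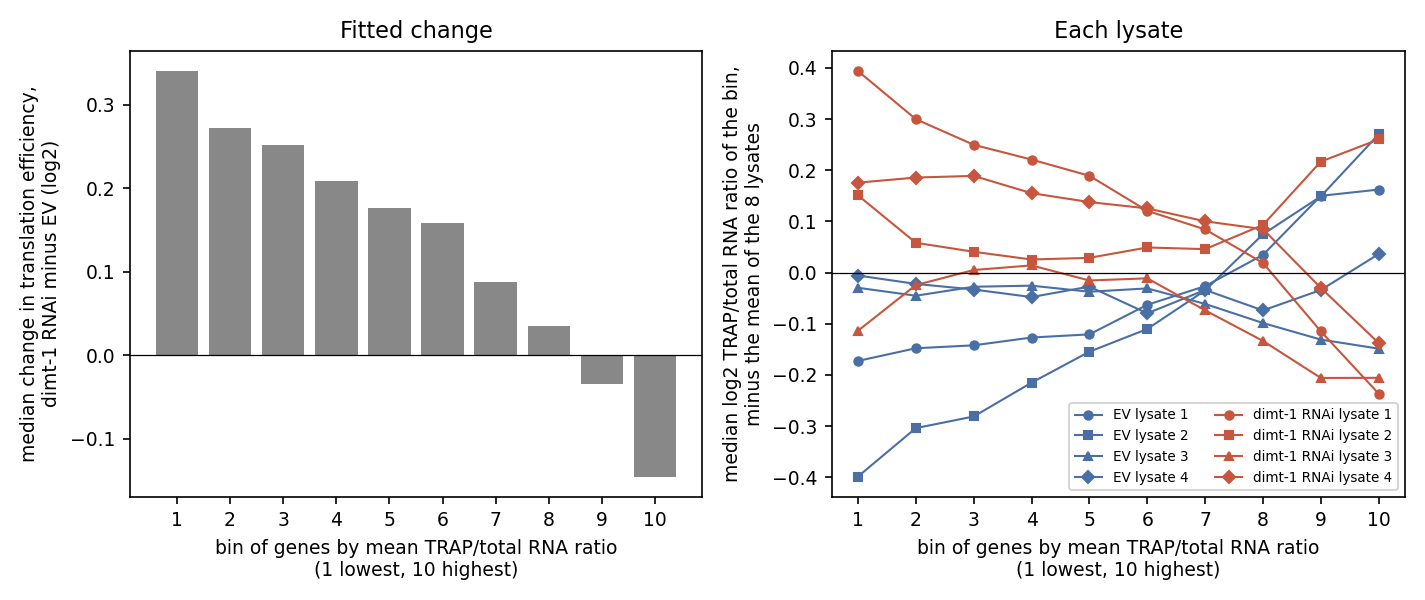
Left, median fitted change (log2) in 10 equal bins of well-counted genes ordered by mean TRAP/total RNA ratio, and right, the median log2 ratio of each bin in each of the 8 lysates after subtracting the mean of the 8. The bars go from 0.34 to -0.15, while the lines show that dimt-1 replicate 3 follows the EV lysates in bin 1 and dimt-1 replicate 2 does so in bin 10.

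The genes of muscle contraction stood at the low end. All 28 sarcomere proteins matched were well counted, 0 were called, 24 had a change below 0, and 0 of 28 lay above the median of all well-counted genes. The median change was -0.23, or -0.37 relative to all well-counted genes, and 9 had an unadjusted p under 0.05. The median ratio of the list was 4.97, 4.97, 4.84 and 5.02 in the 4 EV lysates and 4.51, 4.99, 4.48 and 4.35 under dimt-1 RNAi, so that 3 of 4 dimt-1 replicates were below every EV lysate and dimt-1 replicate 2 was among them. Without dimt-1 replicate 2 the relative median was -0.52, and without dimt-1 replicate 4 it was -0.26.

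Act-4, an actin and the most abundant of these genes, had ratios of 4.90, 5.01, 4.74 and 4.94 under EV and 4.30, 4.88, 4.48 and 4.29 under dimt-1 RNAi. Its change was -0.41 (edgeR, SE 0.17, adjusted p = 0.565; adjusted p = 0.029 in DESeq2). The lowest value was that of unc-22, which encodes twitchin, a giant protein of the thick filament, at -0.56 (SE 0.26), and the highest was that of tnt-3, a troponin T, at 0.12 (SE 0.17). For unc-22 the exons overlap those of 4 other annotated genes. DESeq2 called act-1, act-4, pat-10 and tni-3 lower. A further fit was chosen after seeing the data and leaves out dimt-1 replicate 2, the replicate whose list median lay among the EV values. In that fit of only the well-counted genes, 22 of 8324 were called and all were lower. Among them were act-1, act-4, pat-10, lev-11, tni-3, mlc-3 and unc-54, named here after their values were seen. Because the replicate left out was the one that opposed the fall, the choice favours lower calls of sarcomere genes. Nothing is concluded from these calls. Leaving out the same replicate in the fit of all genes called 0, and in the fit of only the well-counted genes 6 of the 8 lysates left out in turn gave 0. The 7 genes named encode actins, a troponin C, tropomyosin, a troponin I, a myosin light chain and the major myosin heavy chain.

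The 13 genes of muscle attachment, which anchor the filaments to the cell membrane, had a median of -0.13, and 0 of 13 were above that of all well-counted genes. Pat-2, an alpha integrin, was lowest at -0.56 (SE 0.29) and pat-6, an actopaxin, highest at 0.08 (SE 0.19). The 11 well-counted genes of muscle excitability and calcium had a median of -0.04, or -0.17 relative to all well-counted genes, which was -0.01 without dimt-1 replicate 4 and -0.30 without dimt-1 replicate 2. Basement membrane genes, 10 of 11 well counted, had a median of 0.02. With TMM lam-2, the laminin gamma chain, was above EV in every lysate, by less than the shift of the median between the scalings. Its ratios were 2.61, 2.16, 2.19 and 2.51 under EV and 2.97, 3.07, 2.66 and 2.699 under dimt-1 RNAi (change 0.48, SE 0.16, adjusted p = 0.527 in edgeR).

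Genes of energy metabolism, enriched in TRAP as well, had medians below that of all well-counted genes. The respiratory chain and ATP synthase list had 51 of 52 genes well counted, a median of -0.06 and 6 genes above the median of all well-counted genes. Glycolysis and the TCA cycle had 32 of 33 well counted, a median of -0.01 and 4 above it. Relative to all well-counted genes the second list stood at -0.14, which was -0.05 without the replicate labelled dimt-1 replicate 3 and -0.27 without dimt-1 replicate 2, and its own median was then 0.15 and -0.14. The first list stood at -0.19, and at -0.12 without EV replicate 2. Their median 95% half-widths were 0.42 and 0.49. Atp-2, the beta subunit of ATP synthase, lay at 0.01 (SE 0.18), and enol-1, enolase, at 0.12 (SE 0.16). The 13 well-counted genes of mitochondrial DNA had a median of 0.28.

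Of the lists, those of the cytosolic ribosome had the narrowest intervals. All 31 small subunit proteins of the cytosolic ribosome were well counted with a median change of 0.10, and 49 of 50 large subunit proteins with a median of 0.09. Relative to all well-counted genes both stood at -0.04, and 0 of either were called. The median 95% half-widths were 0.33 and 0.35, against 0.69 for all well-counted genes. The median ratios of the small subunit were 0.57, 0.72, 0.52 and 0.59 under EV and 0.69, 0.63, 0.59 and 0.84 under dimt-1 RNAi, and those of the large subunit were 0.50, 0.59, 0.47 and 0.52 under EV and 0.56, 0.59, 0.59 and 0.81 under dimt-1 RNAi. Both sets overlapped between the groups, with dimt-1 replicate 4 the highest lysate in each.

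Single ribosomal proteins differed from their set. Rpl-39, one of the smallest proteins of the large subunit (chromosome V, 7775742 to 7776079 in WBcel235, minus strand), had total RNA levels of 197, 190, 164 and 143 CPM under EV and 181, 170, 162 and 174 CPM under dimt-1 RNAi. Its TRAP levels were 460, 466, 432 and 407 CPM under EV and 642, 637, 598 and 866 CPM under dimt-1 RNAi. The total RNA overlapped while the TRAP values did not, and the ratios were 1.22 to 1.51 under EV and 1.82 to 2.31 under dimt-1 RNAi. The change was 0.63 (edgeR, SE 0.15, adjusted p = 0.461; called by DESeq2 at an adjusted p of 0.032 and by limma voom at 0.049). Its exons overlap those of another annotated gene.

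Rps-28, of the small subunit, had the largest positive value there, 0.47 (SE 0.15). Its ratios were 1.05 to 1.47 under EV and 1.53 to 2.03 under dimt-1 RNAi, which did not overlap with TMM. The margin was smaller than the shift of the median between the scalings. Rps-6, a phosphorylated protein of the small subunit, was the lowest of its set at -0.16 (SE 0.13), and its ratios were also separate, at 0.14 to 0.25 under EV and -0.05 to 0.09 under dimt-1 RNAi. The lowest large subunit gene was rpl-25.1 at -0.58 (SE 0.18), where the replicate labelled dimt-1 replicate 3, at 1.97, lay within the EV range of 1.92 to 2.15 and the other dimt-1 replicates were at 0.94 to 1.47. None of these passed the edgeR test, while DESeq2 called rps-6 (adjusted p = 0.031) and rpl-25.1 (adjusted p = 0.0401).

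Of 45 translation factors 44 were well counted, with a median of 0.18. Of these 5 lay above every EV ratio and 0 below, beside 5.65% and 0.865% of all well-counted genes with TMM and 2.33% and 1.90% with DESeq2's size factors. Eef-1A.1, an elongation factor and the most abundant, stood at -0.06 (SE 0.14), and iff-2, one of the initiation factor 5A genes, was the lowest at -0.66 (SE 0.18; not called in edgeR, adjusted p = 0.012 in DESeq2). All 32 aminoacyl-tRNA synthetases were well counted (median 0.19), as were all 33 proteasome subunits (median 0.14), which spanned the narrow range of -0.12 to 0.29. The 67 of 69 well-counted mitochondrial ribosomal proteins had a median of -0.02. Among 9 rRNA methyltransferases the median was 0.07, and fib-1, fibrillarin, lay at 0.10 with TMM and at -0.04 with DESeq2's size factors.

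Genes of the germline, whose mRNAs were depleted in TRAP, stood at the high end. All 28 germline and oocyte genes were well counted, 0 were called, 26 lay above 0 and 20 above the median of all well-counted genes. The median change was 0.26, or 0.13 relative to all well-counted genes, which became 0.03 without dimt-1 replicate 1. The median ratios of the list were -0.85, -1.02, -0.79 and -0.77 under EV and -0.40, -0.69, -0.66 and -0.53 under dimt-1 RNAi. With TMM these did not overlap, but the nearest values were -0.77 and -0.69. The median of all well-counted genes moved by more than this between the scalings, from 0.14 to -0.01. Overlap of the list with DESeq2's size factors was not examined.

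Nos-2, a Nanos family regulator of the germline, had ratios of -1.18, -1.33, -1.01 and -1.01 under EV and -0.36, -0.67, -0.59 and -0.31 under dimt-1 RNAi (change 0.65, SE 0.16, adjusted p = 0.463 in edgeR and 0.031 in DESeq2). Perm-4, an eggshell gene, stood apart from the list with ratios of 4.84 to 5.18 under EV and 4.83 to 5.33 under dimt-1 RNAi, and a change of 0.07 (SE 0.16).

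Sperm genes were thinly covered, with 26 of 78 well counted. Their median was 0.45 with a median half-width of 1.11, and the value relative to all well-counted genes, 0.31, became 0.12 without the replicate labelled dimt-1 replicate 3. The summed level of 12 sperm markers was 51.98 to 63.72 CPM in total RNA under EV and 53.8 to 252 CPM under dimt-1 RNAi. Msp-51, a major sperm protein with near-identical copies in the genome, so that its counts are uncertain, had the largest value at 1.51 (SE 0.42).

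Of 176 cuticle collagens 45 were well counted, with a median of -0.18. Of these 1 lay above every EV ratio and 4 below, beside the same 5.65% and 0.865% with TMM, or 2.33% and 1.90% with DESeq2's size factors. Collagens build the exoskeleton that the hypodermis secretes. Col-140, the most abundant, had ratios of -0.27, -0.27, -0.08 and -0.18 under EV and -0.74, -0.91, -0.17 and -0.77 under dimt-1 RNAi, where the replicate labelled dimt-1 replicate 3 was among the EV values (change -0.45, SE 0.16, adjusted p = 0.549 in edgeR). Col-12 was the highest at 1.53 (SE 0.56), with a mean level of 2.25 log2 CPM. Its TRAP level under EV was low, at 0.48 to 1.03 CPM. Its total RNA was 2.14 to 4.93 CPM under EV and 40.6, 22.1, 2.99 and 37.6 CPM in dimt-1 replicates 1 to 4. The relative median of the list, -0.31, was -0.42 without the replicate labelled dimt-1 replicate 3.

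The pathways tied to lifespan were close to all well-counted genes or thinly covered. Insulin and FOXO genes, 11 of 14 well counted, had a median of 0.12, TOR pathway genes, 13 of 13, one of 0.04, and AMPK genes, 7 of 11, one of 0.18. Without the replicate labelled dimt-1 replicate 3 the TOR median was 0.23. Par-5, a 14-3-3 protein that binds DAF-16/FOXO, had a change of -0.0015 (SE 0.15), and akt-2, a kinase that acts against it, one of -0.82 (SE 0.55). Of the dafachronic acid pathway, which makes and reads a steroid hormone, 5 of 11 genes were well counted. Daf-9, the cytochrome P450 that completes the hormone, was not among them, with a mean level of -3.38 log2 CPM, and its translation efficiency was not detectable at this depth. Daf-12, the receptor, had a value of -0.61 (SE 0.42) and dre-1, an F-box protein, of 0.51 (SE 0.27).

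Of the enzymes against superoxide and peroxide, 10 of 14 were well counted, with a median of -0.22 and 1 gene above 0. Prdx-2, a peroxiredoxin and the most abundant, was at -0.08 (SE 0.13), and sod-4, an extracellular superoxide dismutase, at -1.49 (SE 0.92). Chaperones, 17 of 24 well counted, had a median of 0.10. Hsp-1, the constitutive HSP70, was at -0.01 (SE 0.13), whereas hsp-12.2, a small heat shock protein, was below EV in every lysate, with ratios of -0.49 to 0.21 under EV and -1.17 to -0.62 under dimt-1 RNAi (change -0.86, SE 0.28).

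**Figure D3:**
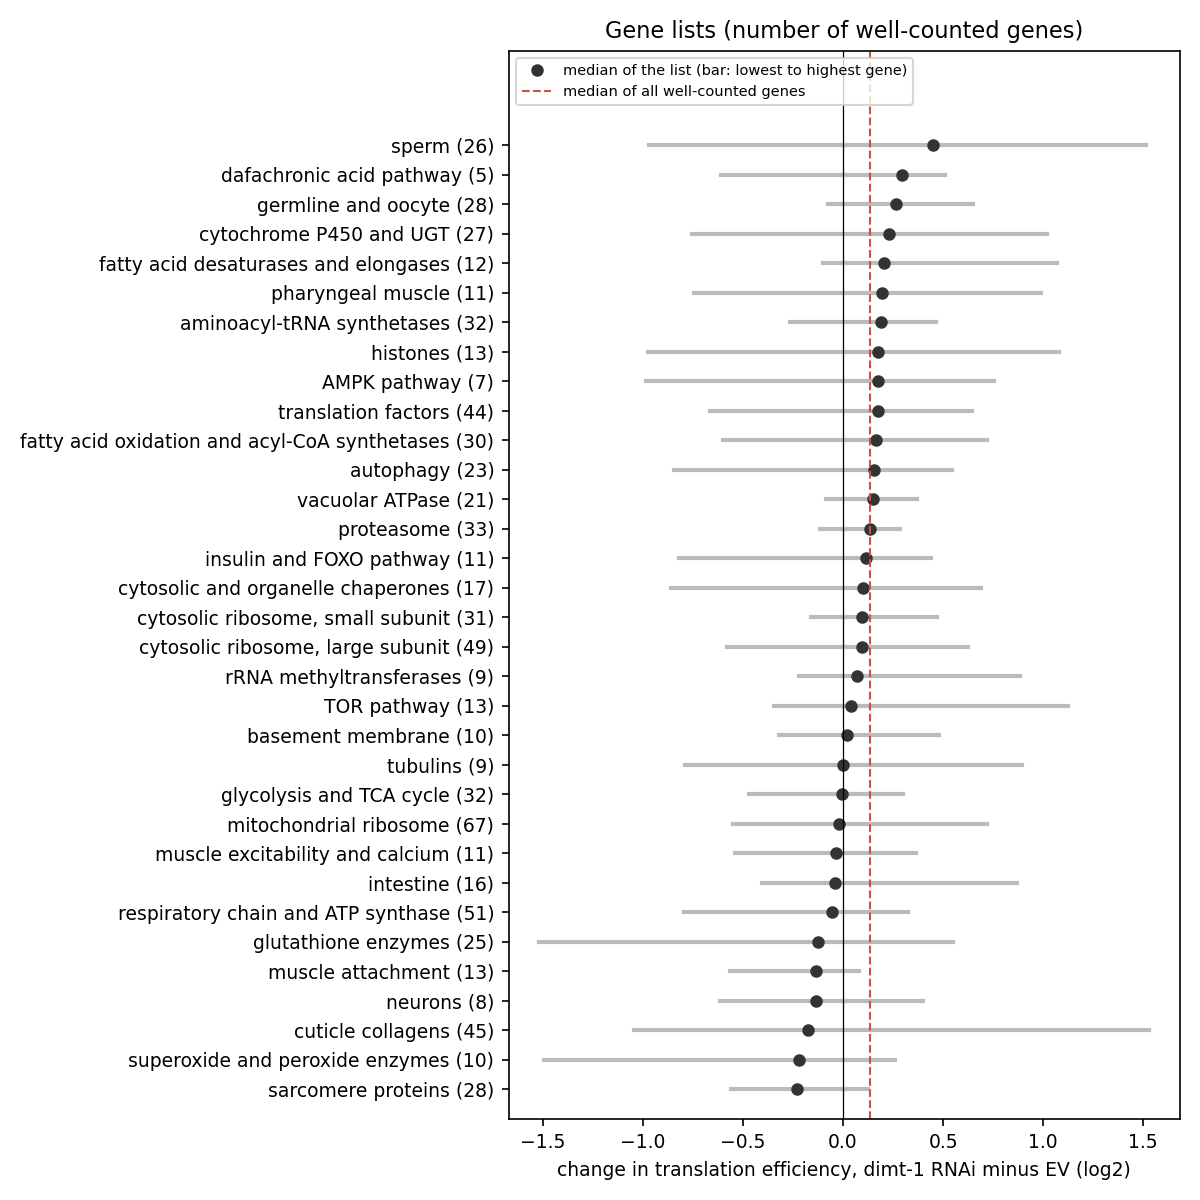
Median change in translation efficiency (log2, dimt-1 RNAi minus EV) of the well-counted genes of each list (points), with the lowest and highest gene (bars), the number of genes in brackets and the median of all well-counted genes (dashed line). Sarcomere proteins, at -0.23, are lowest and sperm genes, at 0.45, are highest, and the bars of most lists span 0.

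The remaining lists lay between these. Autophagy had a median of 0.15, the vacuolar ATPase of 0.15, fatty acid oxidation of 0.17, desaturases and elongases of 0.20, histones of 0.18, cytochrome P450 and UGT enzymes of 0.23 and pharyngeal muscle of 0.19. Tubulins lay at 0.001, the intestine at -0.04, glutathione enzymes at -0.12 and neurons, with 8 of 20 well counted, at -0.14. In each of these lists 0 genes were called. Intestine markers had ratios of -0.77 to -0.42 under EV and of -0.83 to -0.44 under dimt-1 RNAi, which overlapped.

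The largest positive differences among genes of at least 5 log2 CPM without overlap were those of haf-2, F54D5.5, F46F11.8, snpn-1, imb-1, mfsd-13.1, uad-2, T05H10.4, melo-2 and F54D5.9, at 0.89 to 1.00. None passed the test in edgeR. All 10 had a mean ratio below 0 under EV, but picking the largest rises favours low EV ratios. The median ratio of all well-counted genes was itself -0.19 to -0.10 in the EV lysates. Separation of the ratios was also a condition for naming these genes. Imb-1, mfsd-13.1, uad-2 and melo-2 have exons that overlap another annotated gene.

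Imb-1, importin beta, which carries proteins into the nucleus, had the lowest unadjusted p of these. It had total RNA levels of 76.9, 82.2, 77.6 and 74.96 CPM under EV and 67.9, 64.7, 81.3 and 59.98 CPM under dimt-1 RNAi. Its TRAP levels were 30.5, 33.0, 35.4 and 30.8 CPM under EV and 58.7, 59.9, 59.9 and 44.3 CPM under dimt-1 RNAi. The TRAP values of the groups did not overlap, and the replicate labelled dimt-1 replicate 3 was with its group there. Separation of the ratios was a condition for naming imb-1, which favours both, so neither is a result. The ratios were -1.33, -1.31, -1.13 and -1.28 under EV and -0.21, -0.11, -0.44 and -0.44 under dimt-1 RNAi, and the change was 0.97 (edgeR, SE 0.18, adjusted p = 0.461; adjusted p = 0.0035 in DESeq2).

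Haf-2, a half-molecule ABC transporter, showed the same form. Its total RNA was 66.6, 64.5, 71.9 and 69.3 CPM under EV and 64.3, 75.1, 63.1 and 59.8 CPM under dimt-1 RNAi, with TRAP at 26.9, 49.7, 35.6 and 34.02 CPM under EV and 70.5, 66.1, 60.6 and 78.5 CPM under dimt-1 RNAi. Total RNA overlapped and TRAP did not (change 1.00, SE 0.21), which the rule that named the gene favours. F54D5.5 rested in part on 1 lysate, with ratios of -2.71, -1.27, -1.099 and -1.04 under EV and -0.44, -0.61, -0.70 and -0.32 under dimt-1 RNAi. Snpn-1, the snapin gene of vesicle fusion, had ratios of -1.70 to -0.72 under EV and -0.17 to 0.05 under dimt-1 RNAi.

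The largest negative differences were those of F18C12.3, hpo-15, ttr-25, F55H12.4, coa-7, col-160, pck-2, F21C10.7, dnpp-1 and mpc-1, at -0.94 to -0.53, and none passed the test in edgeR. Hpo-15, F55H12.4, coa-7, col-160, pck-2, dnpp-1 and mpc-1 have exons that overlap another annotated gene. F18C12.3 had TRAP levels of 204, 214, 134 and 229 CPM under EV and 77.2, 140, 128 and 108 CPM under dimt-1 RNAi, with total RNA of 31.97 to 34.01 CPM under EV and 32.6 to 40.8 CPM under dimt-1 RNAi. Its ratios, separate by the rule that named it, were 2.06 to 2.82 under EV and 1.24 to 1.78 under dimt-1 RNAi (change -0.94, SE 0.19).

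Pck-2, a phosphoenolpyruvate carboxykinase of gluconeogenesis, was lower in both fractions. Its total RNA was 136, 159, 153 and 138 CPM under EV and 79.9, 90.4, 153 and 97.6 CPM under dimt-1 RNAi, where the replicate labelled dimt-1 replicate 3 was in the EV range. Its TRAP level was 325, 362, 357 and 320 CPM under EV and 116, 149, 214 and 162 CPM under dimt-1 RNAi, so all 4 were below EV. The ratios, separate by the rule that named the gene, were 1.25, 1.18, 1.22 and 1.21 under EV, a spread of 0.03 (SD, n = 4). Under dimt-1 RNAi they were 0.54, 0.72, 0.49 and 0.73. The change was -0.60 (edgeR, SE 0.14, adjusted p = 0.461; adjusted p = 1.02e-05 in DESeq2).

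Mpc-1, the mitochondrial pyruvate carrier, had ratios of 2.03 to 2.41 under EV and 1.39 to 1.89 under dimt-1 RNAi. Coa-7, an assembly factor of cytochrome c oxidase, had 0.70 to 1.12 and 0.04 to 0.50. Ttr-25, a transthyretin-like gene, was strongly enriched in TRAP, at 6.81 to 7.72 and 5.67 to 6.75, and col-160 was at -0.79 to -0.37 and -1.44 to -0.80. Separation of the groups was a condition for naming these 4 genes and is not a result. For col-160 the margin was narrow, at -0.792 under EV against -0.805 under dimt-1 RNAi.

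**Figure D4:**
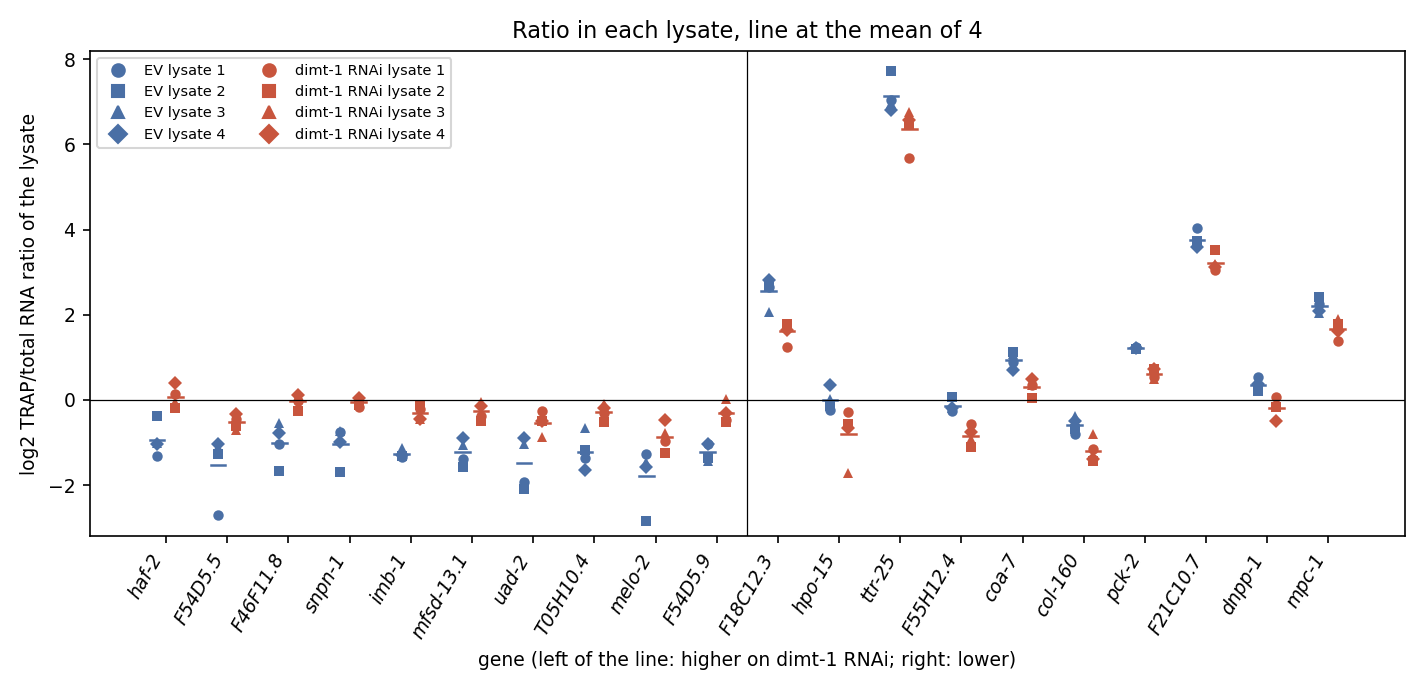
Log2 TRAP/total RNA ratio in each of the 8 lysates (points, 4 EV and 4 dimt-1 RNAi, with a line at the mean of 4) for the 10 largest positive and 10 largest negative differences among genes of at least 5 log2 CPM without overlap. The 10 genes at the left lie below 0 under EV, which picking the largest rises favours. Those at the right range from -0.58 (col-160) to 7.14 (ttr-25) in their EV mean.

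What the genes share beyond their counts was described by position and length. The median change was 0.12 to 0.15 on each autosome and 0.04 on the X chromosome (1082 genes). By coding length, in 5 equal bins over the 8150 genes with a value, the median went from 0.08 at a median of 444 nucleotides to 0.18 at 2900 nucleotides, while the median EV ratio went from 0.35 to -0.52, so length moved together with TRAP enrichment. By the GC share of wobble bases the medians were between 0.09 and 0.17, and by mean level between 0.01 and 0.18.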

How the data were processed

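RNA of 16 libraries (TRAP and total RNA, 4 replicates each under EV and dimt-1 RNAi, TruSeq stranded mRNA kit) was analysed. Per the labels, the authors deposited raw gene counts in 1 table, and the submitters' processing notes name STAR 2.7.2b. Their methods, which describe the germline experiment, name the WBcel235 genome and state neither the strand setting nor how the reads of a pair were counted. Germline libraries were not analysed here.

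Symbols came from a table of gene IDs (43395 of 46748 IDs matched, and 8183 of the 8324 well-counted ones), and positions from the Ensembl annotation of WBcel235. The counts were fitted with edgeR 4.0.16 in R 4.3.3 (filterByExpr, TMM, glmQLFit, glmQLFTest) with 8 lysates, fraction and the interaction of fraction and RNAi, with Benjamini-Hochberg adjustment over 15897 genes at 0.05. The TRAP and total RNA of a replicate were taken as 1 lysate from the labels' numbers and from the authors' account of the germline TRAP. Ratios used a prior count of 2, and intervals came from limma 3.58.1. The fit was checked on simulated counts with changes larger than 2-fold only, so this check says nothing of smaller changes. Depth was 34794250 to 49782576 counts per library. TMM factors were 0.525 to 0.692 for TRAP and 1.56 to 1.78 for total RNA. Nothing beyond the label biological replicate says how replicates were separated, so p-values measure the spread between these samples.

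Members and gene lists were chosen with earlier results of these data known. A list of mitochondrially encoded mRNAs matched 0 symbols, so those genes were taken by chromosome. Named genes were E02H1.1, daf-9, the 10 largest differences in each direction at a mean of at least 5 log2 CPM without overlap (called genes first, of which there were 0), and from each list the most abundant gene, the highest, the lowest and any called. Genes named outside this rule are marked as such. Alternatives were DESeq2 1.42.0 and its size factors, library size alone, a minimum of 10 or 50 counts, no filter, limma, limma voom with quality weights, no lysate block, the replicate number as a block, counts divided by 2, and leaving out each lysate.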

Additional observations from a re-analysis of the deposited data

Results flagged for a closer look

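In groups of 4 lysates, a value was picked out where its gap to the nearest lysate, as a share of the range of the group, was above Dixon's 95% critical value. Of 308 groups tested 16 were past this limit, which is about the share of 1 in 20 that chance gives. Of these, 10 were genes, 5 were lists and 1 was a measure of a lysate. All ratios are log2 TRAP over total RNA.

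The replicate labelled dimt-1 replicate 3 stood apart in the SD of its deviations from the group mean over the well-counted genes, at 0.538 against 0.324 to 0.360 in the other dimt-1 replicates. The EV lysates had 0.465 to 0.558, so its value lay within the EV range. Dimt-1 replicate 3 was also the distant lysate in the ratio of metl-5, at -2.85 against -0.23 to 0.01, and of atg-4.1, at -2.85 against -0.23 to -0.14. The same held for the median ratio of the TOR pathway, at -0.86 against -0.53 to -0.46, and of the tubulins, at -0.33 against 0.05 to 0.11.

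Other dimt-1 replicates were distant in the ratio of rpl-39 (2.31 in replicate 4, against 1.82 to 1.90), of msp-51 (-0.85 in replicate 2, against -0.24 to -0.12), of tba-7 (0.11 in replicate 1, against 0.39 to 0.42) and in the median of the large ribosomal subunit (0.81 in replicate 4, against 0.56 to 0.59). EV replicate 1 was distant in the ratio of F54D5.5 (-2.71, against -1.27 to -1.04) and of aakg-5 (-1.24, against -0.33 to -0.16). EV replicate 2 was distant in the ratio of ucr-11 (4.69, against 4.096 to 4.197), in the median of the histones (-0.095, against -0.21 to -0.19) and in that of the AMPK pathway (-0.26, against 0.75 to 0.82). EV replicate 3 was distant in the ratio of mrpl-44 (1.035, against 1.184 to 1.198) and of gst-16 (0.35, against 1.01 to 1.09).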

How the results depend on the processing

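The count of 0 called genes was kept with DESeq2's size factors, library size alone, the fit of only the well-counted genes, no filter, a minimum of 50 counts, limma on the ratios and counts divided by 2, and leaving out each lysate gave 0 to 0. With no replicate block and with the replicate number as the replicate block it was also 0, with a lowest adjusted p of 0.0706 and 0.265. Without the filter the lowest was 0.056. Deviations of the same number across RNAi correlated at -0.124 to 0.0431. TRAP and total RNA of 1 replicate are taken as 1 lysate in the main fit. Their deviations correlated at 0.000704 to 0.0523 under EV and 0.12 to 0.341 under dimt-1 RNAi. The EV values lay close to those across RNAi. The check therefore settles neither the pairing of the groups nor the shared lysate under EV. DESeq2 called 45 and limma voom with quality weights 14, and the cause was not tested. Leaving out each lysate in the fit of only the well-counted genes, a combination chosen after seeing the data, gave 0 to 22 calls, with 22 without dimt-1 replicate 2 and 7 without the replicate labelled dimt-1 replicate 3. The difference of E02H1.1 in total RNA was -7.16 to -3.89 CPM when each lysate was left out, and in TRAP 2.95 to 9.24 CPM. Genes at an unadjusted p under 0.05 numbered 442 (without dimt-1 replicate 1) to 1069 (without the replicate labelled dimt-1 replicate 3), against 855 with all lysates. With DESeq2's size factors the change of rps-25 was -0.0146 (0.13 with TMM), of fib-1 -0.0389 (0.10) and of tba-2 -0.117 (0.02), and DESeq2's own test gave -0.0146, -0.0390 and -0.117. In the fit of only the well-counted genes tba-2 was at -0.0800. These 3 were past no threshold, and the cause was not tested. Of the other values for named genes and lists, 2366 moved by no more than the spread and, for genes, kept their side of the threshold. A change of sign within the spread is counted among these. A further 25 passed the threshold with DESeq2 or limma voom, and 36 moved by more than the spread.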
